A study of Mus musculus with 26 samples.

Results

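The genes described here are the mouse ADAM genes, which encode membrane proteins with a disintegrin and a metalloprotease domain, together with 5 genes whose products fold or mature these proteins in male germ cells. They were chosen by name: every protein-coding gene of the deposited table called Adam followed by a number and at most 1 letter, plus Calr3, Clgn, Pdilt, Ace and Ly6k. This gave 39 genes of 51124 in the table, of which 34 were ADAMs. From textbook knowledge of where each is expressed, 21 of the ADAMs were classed as testis ADAMs and 13 as other ADAMs. Of the other ADAMs, 8 are broadly expressed, 3 are mostly neural and 2 are known from the epididymis.

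The study placed binding sites for 1 abundant pachytene piRNA, piR-A, in the last exon of Ythdc2, which encodes a helicase of meiotic germ cells. Total RNA of adult whole testes was sequenced from wild-type (WT) mice, from 10xPerf mice with 10 sites fully complementary to the piRNA, and from 10xBulge mice with 10 sites mismatched at piRNA positions 10 and 11. There were 2 libraries per genotype: libraries 1 and 2 were WT, 3 and 4 were 10xPerf, and 5 and 6 were 10xBulge. The labels do not name the mouse behind a library, and each library is taken here as 1 mouse. Both knock-in alleles were made with Cas9 in embryos of the hybrid line B6D2F1/J, and the knock-in lines were kept as homozygotes, so a genotype is also a line. Ythdc2 itself stood at 827 and 2412 normalized counts in WT, at 1334 and 1136 in 10xPerf and at 1202 and 2458 in 10xBulge, so the 3 genotypes overlapped.

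ADAM proteins are made as inactive precursors and are folded in the endoplasmic reticulum. The broadly expressed members, such as ADAM10 and ADAM17, are proteases that release growth factors, receptors and adhesion molecules from the cell surface. Some testis ADAMs, ADAM3 among them, sit on the sperm surface, and many of the class lack protease activity. ADAM1 and ADAM2 form the fertilin complexes, and ADAM3 is required for sperm to pass into the oviduct and to bind the zona pellucida. Calmegin (Clgn), calsperin (Calr3) and the disulfide isomerase-like protein PDILT are germ cell chaperones needed for ADAM3 to reach the sperm surface. The testis form of angiotensin-converting enzyme (Ace) and LY6K are further factors for ADAM3 maturation.

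Depth was about 41100000 to 61600000 reads per library, as estimated from the smallest recurring value of each library, and 3 reads were worth 2.73 to 3.63 normalized counts. Values are normalized read counts per gene. Differences are log2 fold changes on log2(normalized count + 1), tested with limma over the 23782 genes that reached 10 normalized counts in 2 or more libraries. A gene was called higher or lower when its limma adjusted p, by the method of Benjamini and Hochberg, was under 0.1. Of the members, 38 were tested. Adam7, an epididymal gene, was left out at 0 and 6.55 normalized counts in WT, 0 and 0 in 10xPerf and 0.915 and 1.89 in 10xBulge. The testis label held for the tissue: spermatocyte, Sertoli and Leydig cell markers were present in all 6 libraries. Of the 8 genes of the epididymis list, Lcn5 was at 0 in all libraries, while Lcn2 (6713 to 44744 normalized counts) and Wfdc10 (575 to 2462) were present in all of them. The rest of the list, Crisp1, Defb20, Lcn8, Lcn9 and Spint4, was not tested. None of them was above 9.19 normalized counts, the value of Lcn8 in WT library 2.

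To show the DNA in front of genes that changed together, the promoter table of RefSeq (build GRCm38.p6, 250 bases before to 50 bases after each start) was searched on both strands for 4 motifs of spermatogenic regulators. It held 25 start sites for 21 of the 39 members, 11 of these members being testis ADAMs. The MYB core TAACNG, which is bound by the meiotic factor MYBL1, stood in the promoters of 6 of these 11 testis ADAMs, against 23.3% of all 32851 promoters of the same length. It stood in none of the 9 start sites of other ADAMs. Of the 6 genes, Adam6a, Adam6b, Adam26b, Adam29 and Adam34 fell in 10xBulge and Adam1b did not pass the test. The 5 testis ADAMs with a listed promoter but no MYB core (Adam1a, Adam20, Adam21, Adam25 and Adam34l) all fell, so genes that fell stood on both sides. The windows below lie upstream of the start site, with the motif in capitals, and are shown because they are the MYB matches among the testis ADAMs. The RFX matches of Adam26b and Adam34l are not shown. Of the motifs searched, the cyclic AMP response element contains its own core, and no other motif contains another.
Adam6a, chr12:113543872-113543901, + strand: cacacccagtgaCTGTTAcctaactccagt
Adam6b, chr12:113489428-113489457, + strand: cacacccagtgaCTGTTAcctaactccagt
Adam26b, chr8:43528358-43528387, - strand: ataaaataaacaTAACAGggagttctcatg
Adam29, chr8:55907029-55907058, - strand: ttctgtgactcaTAACTGacttcctcagac
Adam34, chr8:43665594-43665623, - strand: gtctattgtagcTAACAGggttagtaattt
Adam1b, chr5:121503525-121503554, - strand: aggaaacagataTAACAGagtatgcccacc
The windows of Adam6a and Adam6b were identical over their 30 bases, and the motif lay 24 to 19 bases before the start of Adam6a but 125 to 120 bases before that of Adam6b. The palindromic cyclic AMP response element was in none of the 25 start sites, against 1.79% of all promoters. Its core TGACG was in 2 of the 25 (Adam10 and Calr3), against 20.8%, and the RFX core GTTGCC in 5 of the 25, against 12.5%. The start site listed for Adam34l, 1 of these 5, lies outside the GENCODE gene model of Adam34l and inside that of Adam34. It may not belong to Adam34l. The place of Adam34l among the 11 testis ADAMs searched, and among those without a MYB core, is therefore uncertain too. Calr3 had the RFX core at both of its listed start sites. A match is a description of the letters and not a shown binding site.

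The first question was how the testis ADAMs stood in 10xBulge testes. Of the 21 testis ADAMs, 15 fell and 0 rose against WT (limma, 0 also at an unadjusted p under 0.05), where 23.0% of all genes tested were called lower and 11.4% higher. Their median log2 fold change was -5.24, against -0.03 over all genes tested. Of the 5 chaperone and maturation genes 3 fell, and of the 12 other ADAMs tested 3 rose and 1 fell. In the same libraries the 16 spermatid markers summed to between 725552 and 943343 normalized counts in WT and 10xPerf. In 10xBulge they summed to 22729 and 23554, mostly from Odf2 (14936 and 11153) and Zpbp (4586 and 10868). Of the 16 markers 15 were called lower, Zpbp was not called and none was at 0. The median log2 fold change of the spermatid markers was -7.31. The 14 spermatocyte markers gave 1 called higher (Dmc1) and 0 lower (limma, 0 also at an unadjusted p under 0.05), with a median of 0.10 and sums of 62008 and 52108 in 10xBulge against 45566 and 63773 in WT. Sertoli, Leydig and macrophage markers were called higher for 6 of 10, 5 of 7 and 6 of 6 genes. Of 10 spermatogonial markers 2 were called higher and 1 lower. Of 6 markers of peritubular muscle and vessels 0 were called by limma (0 also at an unadjusted p under 0.05). Both tested genes of the epididymis list, Wfdc10 and Lcn2, were called higher, while the rest of that list was too low to be tested. In whole testes, fewer cells of a type and less RNA per cell cannot be told apart, and the part of these cell types in the members' values was not tested.

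**Figure D1:**
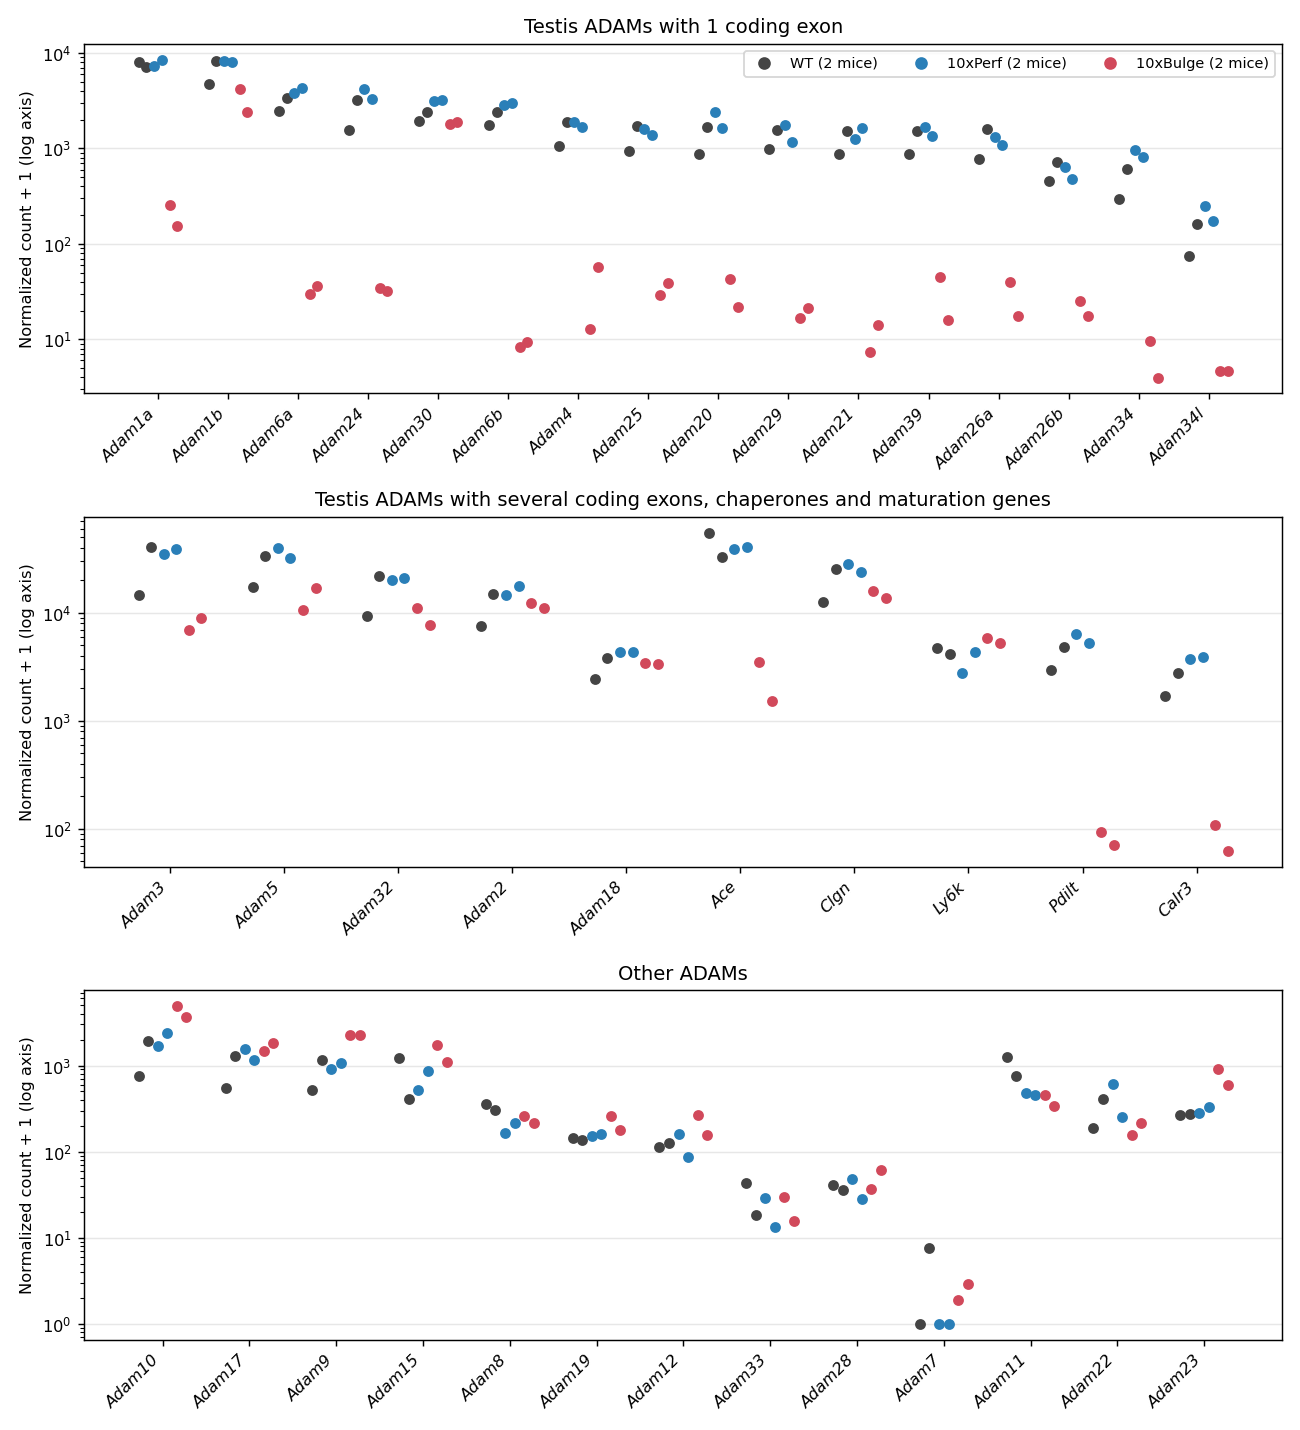
Normalized counts of all 39 members in the 6 libraries (vertical log axis, normalized count + 1, each point is 1 library, black WT, blue 10xPerf, red 10xBulge). In the upper panel 14 of 16 genes have both 10xBulge points far below the other 4. Those of Adam1b and Adam30 are also below the other 4, but close to them. At any distance, both 10xBulge libraries were below the other 4 for 27.8% of all genes tested.

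Adam6b and Adam6a, a pair of testis ADAMs side by side on chromosome 12, held the largest fall among the members and the next but one. Adam6b was at 1771 and 2433 normalized counts in WT, 2836 and 2972 in 10xPerf and 7.27 and 8.42 in 10xBulge. The mean of Adam6b was 2102 ± 468 in WT and 7.84 ± 0.817 in 10xBulge (SD, n = 2 each), which is 268-fold lower, with a log2 fold change of -7.88 (SE 0.40, limma adjusted p = 4.39e-06). Adam6a went from 2460 and 3343 in WT, with 3836 and 4310 in 10xPerf, to 29.0 and 34.8 in 10xBulge (log2 fold change -6.45, limma adjusted p = 6.73e-06). No 10xBulge value of either gene came near the other 4 libraries. The ratio of Adam6b to Adam6a also differed between genotypes: it was 0.690 to 0.739 in the 4 WT and 10xPerf libraries and 0.251 and 0.242 in 10xBulge. The transcripts share 323 exact stretches of 100 bases, the read length, which are 13.1% of Adam6a and 13.2% of Adam6b, so reads there could be assigned to either gene.

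Adam21 and Adam4 lie on the same chromosome within 0.149 Mb of each other (GRCm38). Adam21 was at 869 and 1527 normalized counts in WT and 1249 and 1623 in 10xPerf, and it was at 6.29 and 13.2 in 10xBulge. This was a 123-fold lower mean (log2 fold change -6.82, SE 0.50, limma adjusted p = 1.41e-05). Adam4 was at 1062 and 1876 in WT, at 1882 and 1691 in 10xPerf and at 11.7 and 56.5 in 10xBulge (log2 fold change -5.71, SE 0.66). The 10xBulge libraries differed more from each other in Adam4 than in the other testis ADAMs that fell, but both were far under every other library.

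Of the 3 groups of neighbouring ADAM genes on chromosome 8, every member of 2 fell; the other, with Adam3 and Adam9, is described further on. Adam24, Adam25, Adam20 and Adam39 lie on the plus strand within 0.152 Mb, at chr8:40675077-40827037 (GRCm38), and their log2 fold changes were between -6.08 and -5.22. Adam24 was the highest of them, at 1563 and 3203 normalized counts in WT, 4204 and 3256 in 10xPerf and 33.4 and 30.7 in 10xBulge. Adam26b, Adam26a, Adam34l and Adam34 lie on the minus strand at chr8:43519762-43710049, with log2 fold changes between -6.08 and -4.57. Adam34 was at 291 and 605 in WT, 950 and 810 in 10xPerf and 8.68 and 2.97 in 10xBulge, the last of these being worth about 3 reads. Adam34l, the lowest of the testis ADAMs, was at 73.7 and 162 in WT, 251 and 171 in 10xPerf and 3.62 and 3.71 in 10xBulge. Both 10xBulge values of Adam34l were little above the worth of 3 reads (2.73 in library 5 and 2.90 in library 6). The size of its fall is uncertain, as its log2 fold change ran from -5.13 to -3.14 over the alternative settings. Adam29, which lies apart from both groups, was at 974 and 1551 in WT, 1755 and 1169 in 10xPerf and 15.6 and 20.04 in 10xBulge (log2 fold change -6.04, limma adjusted p = 1.46e-05). Adam20, Adam25 and Adam39 share 16.3% to 19.1% of their 100-base stretches with each other or a predicted gene, and Adam26a and Adam26b share 17.2% and 14.9% with others, so the values of these single genes are uncertain. Adam24 and Adam29 share none.

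The fertilin genes went apart. Adam1a, which encodes one fertilin alpha subunit, was at 7950 and 7071 normalized counts in WT, 7222 and 8454 in 10xPerf and 255 and 152 in 10xBulge, a 36.9-fold lower mean (log2 fold change -5.24, SE 0.41, limma adjusted p = 1.82e-05). Adam1b, the neighbouring alpha subunit gene on chromosome 5, was at 4685 and 8143 in WT, 8309 and 8121 in 10xPerf and 4191 and 2427 in 10xBulge. Both 10xBulge values of Adam1b were the lowest of the 6, but it did not pass the test (log2 fold change -0.95, 95% confidence interval -1.97 to 0.07, limma adjusted p = 0.154), and without library 5 it did (-1.35, limma adjusted p = 0.0783). The ratio of Adam1a to Adam1b was 0.868 to 1.70 in WT and 10xPerf and 0.0608 and 0.0628 in 10xBulge. Adam2, the fertilin beta subunit, was at 7472 and 15072 in WT, 14578 and 17812 in 10xPerf and 12409 and 11157 in 10xBulge. For Adam2 the 10xBulge and WT libraries overlapped (log2 fold change 0.15, 95% confidence interval -0.88 to 1.17, limma adjusted p = 0.842). Both 10xBulge values of Adam2 lay under the 10xPerf values (log2 fold change -0.45 against 10xPerf, limma adjusted p = 0.494). Adam1b shares 30.4% of its 100-base stretches with Adam1a. Adam1a shares 76.5% of its own with other genes, chiefly the overlapping Gm42878 (61.8%) and Mapkapk5 (23.0%), so its remaining counts in 10xBulge are uncertain.

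Adam3, the gene for the sperm ADAM that the chaperones serve, fell less than Adam1a and stayed among the most abundant. It was at 14699 and 40954 normalized counts in WT, 35053 and 38935 in 10xPerf and 6886 and 8979 in 10xBulge. Both 10xBulge values lay under the other 4, and the mean was 3.51-fold lower than in WT (log2 fold change -1.64, SE 0.53, limma adjusted p = 0.0496). This call was lost in 6 of 16 alternative settings, among them the one without library 2 (-0.90, limma adjusted p = 0.225) and those without library 3 (0.128), library 4 (0.132) or library 5 (0.112). Its neighbours Adam5, Adam32 and Adam18 on chromosome 8 did not pass the test. Adam5 was at 17236 and 33777 in WT, 39557 and 32401 in 10xPerf and 10620 and 16911 in 10xBulge (log2 fold change -0.85, limma adjusted p = 0.230). Adam32 was at 9285 and 21796 in WT, 20274 and 20863 in 10xPerf and 10993 and 7633 in 10xBulge (-0.64, 0.377). Adam18 was at 2452 and 3822 in WT, 4364 and 4307 in 10xPerf and 3414 and 3355 in 10xBulge (0.14, 0.823). Adam30, on chromosome 3, was at 1942 and 2385 in WT, 3126 and 3190 in 10xPerf and 1787 and 1873 in 10xBulge (-0.23, 0.682). The ratio of Adam2 to Adam3 was 0.368 to 0.508 in the 4 WT and 10xPerf libraries and 1.80 and 1.24 in 10xBulge.

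**Figure D2:**
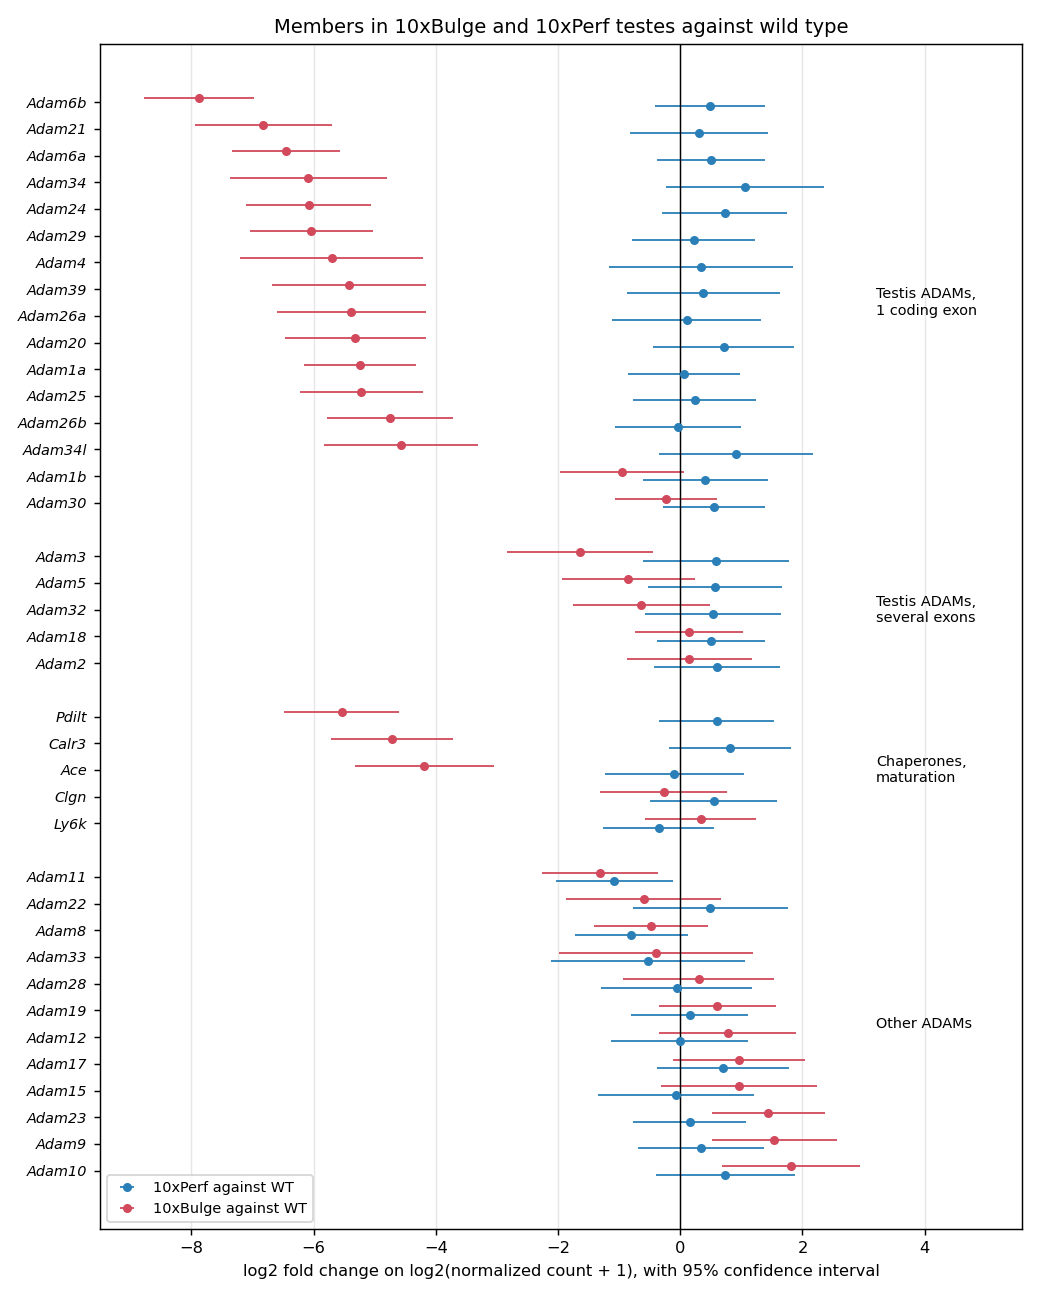
Log2 fold changes of the 38 tested members against WT with 95% confidence intervals (horizontal axis, on log2(normalized count + 1), red 10xBulge, blue 10xPerf, 2 libraries per genotype). The 14 testis ADAMs at the top and Pdilt, Calr3 and Ace lie between -7.88 and -4.19 in 10xBulge, and the 10xPerf points lie between -1.08 and 1.06.

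Exon structure, which the choice of members did not use, differed between the testis ADAMs that fell and those not called. This was noticed after the values were seen and is a description. In the GENCODE M21 annotation 16 of the 21 testis ADAMs have their whole protein in 1 coding exon, and 14 of these 16 fell, with a median log2 fold change of -5.40; Adam1b and Adam30 were not called. The other 5, Adam2, Adam3, Adam5, Adam18 and Adam32, have several coding exons. Of them 1, Adam3, fell, and their median was -0.64. Per kb of transcript, the genes with several coding exons were also the more abundant ones: Adam3 stood at 10144, Adam5 at 9139, Adam32 at 6343 and Adam2 at 4419 normalized counts per kb in the WT mean, while the highest gene with 1 coding exon, Adam1b, stood at 1921. Adam18, at 1329, was the only one of the 5 below Adam1b, and also below Adam1a at 1570. The value of Adam1a divides by its longest annotated transcript, 4783 bases. A shorter transcript would give a higher value, so its rank is uncertain. Adam30, not called, stood at 616, below Adam1a and Adam6a (1134), which both fell. Level and exon structure thus went together for most but not all of these genes, and they were not told apart here.

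As a sum over the 21 genes, testis ADAM transcripts stood at 27853 and 56362 normalized counts per kb in WT, 57002 and 56555 in 10xPerf and 19043 and 19641 in 10xBulge. Library 1 stood apart from the other WT library: it was below library 2 for 20 of the 21 testis ADAMs, with a median log2 difference of -0.82, while over all genes tested 11870 of 23782 were lower in library 1 and the median was 0. The genes with several coding exons made up 69.3% and 77.1% of the sum in WT, 75.1% and 76.3% in 10xPerf and 89.9% and 92.9% in 10xBulge. Adam3 alone went from 19.2% and 26.5% in WT to 13.2% and 16.7% in 10xBulge, and Adam2 from 10.5% and 10.5% to 25.5% and 22.3%. Without library 1 the testis ADAM median in 10xBulge was -5.66, and 15 of 21 were again called lower.

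**Figure D3:**
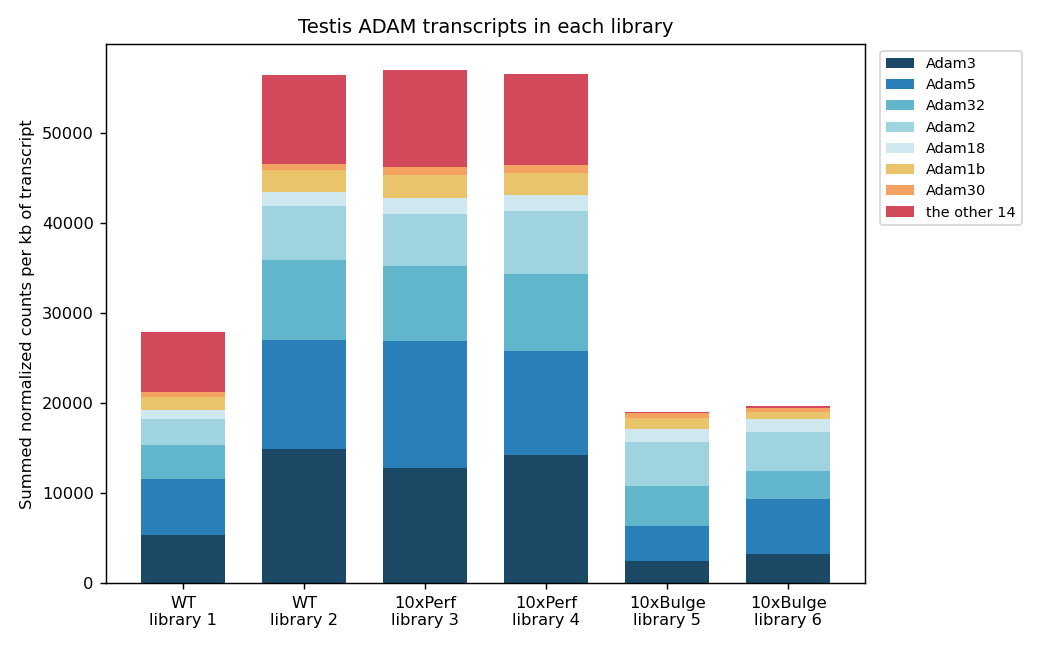
Summed testis ADAM transcripts in each library (vertical axis, normalized counts per kb of transcript, 1 bar per library, segments are genes). In the legend, "the other 14" are the genes with 1 coding exon other than Adam1b and Adam30. The red segment of the other 14 genes is visible in WT and 10xPerf and almost gone in 10xBulge, where the sums are 19043 and 19641.

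Among the chaperones, Pdilt and Calr3 fell with the testis ADAMs and Clgn did not pass the test. Pdilt was at 2979 and 4823 normalized counts in WT, 6328 and 5205 in 10xPerf and 92.8 and 69.5 in 10xBulge, a 48.04-fold lower mean (log2 fold change -5.54, SE 0.42, limma adjusted p = 1.56e-05). Calr3 was at 1695 and 2781 in WT, 3760 and 3888 in 10xPerf and 107 and 61.7 in 10xBulge, a 26.6-fold lower mean (log2 fold change -4.72, SE 0.44, limma adjusted p = 5.13e-05). Clgn was at 12612 and 25186 in WT, 28336 and 23940 in 10xPerf and 15828 and 13734 in 10xBulge, where the genotypes overlapped (log2 fold change -0.27, 95% confidence interval -1.31 to 0.76, limma adjusted p = 0.703). Ace was at 54589 and 32854 in WT, 39128 and 40188 in 10xPerf and 3532 and 1531 in 10xBulge (log2 fold change -4.19, SE 0.51, limma adjusted p = 0.000247). The table counts Ace as 1 gene, so the somatic form and the testis form, which starts inside the gene, are summed. Ly6k was at 4729 and 4142 in WT, 2756 and 4340 in 10xPerf and 5901 and 5267 in 10xBulge, the highest values of the 6 libraries, without passing the test (log2 fold change 0.33, limma adjusted p = 0.582).

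None of the 3 somatic relatives of the chaperones passed the test. Calr, the calreticulin gene, was at 17955 and 22373 normalized counts in WT, 18226 and 22744 in 10xPerf and 54825 and 17196 in 10xBulge (log2 fold change 0.62, limma adjusted p = 0.459). Canx, the calnexin gene, had a log2 fold change of 0.63 (limma adjusted p = 0.389), and P4hb, a protein disulfide isomerase gene, of 0.95 (0.226). The ratio of Pdilt to P4hb was 0.792 to 1.60 in WT and 10xPerf and 0.00841 and 0.0128 in 10xBulge. The ratio of Calr3 to Calr was 0.0944 to 0.206 and then 0.00195 and 0.00359, and that of Clgn to Canx was 1.75 to 2.62 and then 1.18 and 1.28. Of the 12 genes listed for folding in the endoplasmic reticulum, these 3 included, all 12 had a log2 fold change above 0 and 1, Uggt1, the glucosyltransferase that checks glycoprotein folding, was called higher (1.73, limma adjusted p = 0.0116), where 11.4% of all genes tested were. The list's median was 0.79, against -0.03 over all genes tested. In 10xPerf against WT 11 of the 12 were above 0 as well, with a median of 0.54. The list summed to 62447 and 105895 normalized counts in WT and 99376 and 121416 in 10xPerf. In 10xBulge it summed to 175808 and 105339, so library 6 was close to WT library 2.

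**Figure D4:**
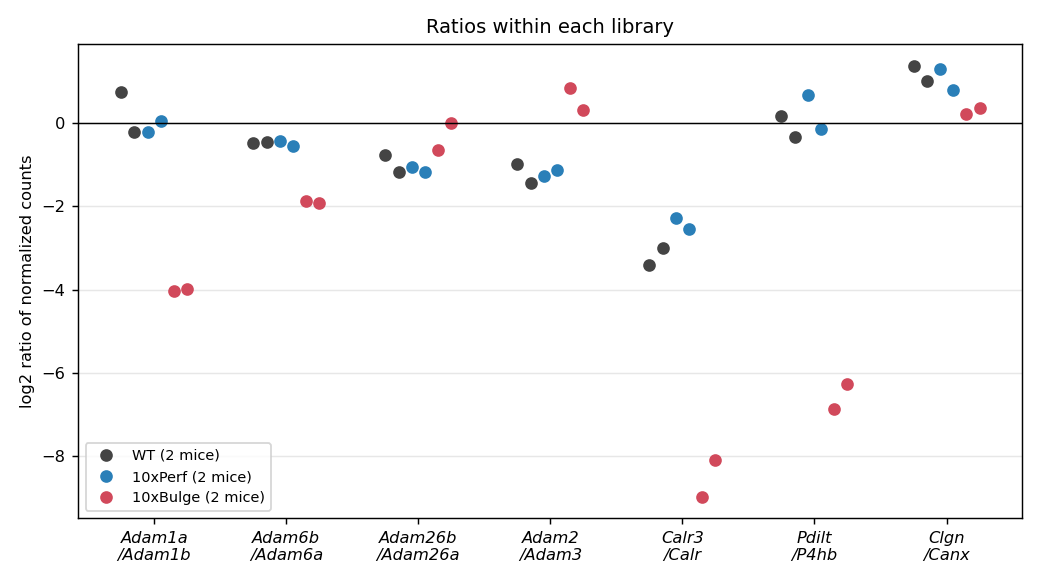
Log2 ratios of normalized count + 1 within each library for 7 gene pairs (vertical axis, each point is 1 library, black WT, blue 10xPerf, red 10xBulge). The 10xBulge points of Adam1a/Adam1b, Adam6b/Adam6a, Calr3/Calr, Pdilt/P4hb and Clgn/Canx lie below the other 4 libraries. Those of Adam2/Adam3 and Adam26b/Adam26a lie above them, the last by little (-0.65 in library 5 against -0.75 in WT library 1). How often other gene pairs part in this way was not tested.

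Of 11 further genes listed for ADAM3 maturation and the sperm surface, 10 were tested, 5 were called lower and 0 higher (limma, 0 also at an unadjusted p under 0.05), with a median of -0.79, where 23.0% of all genes tested were lower and 11.4% higher. Prss55, a serine protease of sperm, was at 6963 and 3983 normalized counts in WT, 4286 and 5323 in 10xPerf and 18.8 and 7.97 in 10xBulge (log2 fold change -8.63, limma adjusted p = 5.84e-06). Prss37 and Pmis2, both needed for ADAM3 on sperm, changed by -8.10 and -5.30. Cmtm2a changed by -1.13 (limma adjusted p = 0.0798). Tex101, the germ cell partner of LY6K, had a log2 fold change of 0.31 (limma adjusted p = 0.620).

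Of the other ADAMs called in 10xBulge, 3 rose and 1 fell. Adam10, the gene for the main constitutive sheddase, was at 757 and 1904 normalized counts in WT, 1680 and 2386 in 10xPerf and 4863 and 3651 in 10xBulge, a 3.2-fold higher mean (log2 fold change 1.81, SE 0.50, limma adjusted p = 0.0273). Adam9 was at 524 and 1153 in WT, 899 and 1072 in 10xPerf and 2273 and 2257 in 10xBulge (log2 fold change 1.54, SE 0.45, limma adjusted p = 0.0354). Adam9 lies next to Adam32 at the end of the 5-gene group chr8:24602246-25016927 on the same strand, and the ratio of Adam3 to Adam9 was 28.1 to 39.01 in WT and 10xPerf and 3.03 and 3.98 in 10xBulge. Adam23, a neural ADAM without protease activity, was at 269 and 272 in WT, 277 and 329 in 10xPerf and 907 and 596 in 10xBulge (log2 fold change 1.44, SE 0.41, limma adjusted p = 0.0305). In all 3 genes both 10xBulge values were above the other 4, as for 23.5% of all genes tested. Without WT library 1, none of the 3 passed (limma adjusted p = 0.170 for Adam10, 0.185 for Adam9 and 0.126 for Adam23) and 1 other ADAM, Adam15, was called higher (0.0992). Without library 5, Adam23 gave 0.118.

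Adam11, a neural ADAM, was the one other ADAM that fell. It was at 1264 and 758 normalized counts in WT, 474 and 451 in 10xPerf and 458 and 338 in 10xBulge (log2 fold change -1.31, SE 0.42, limma adjusted p = 0.0497). Its 10xPerf values were close to those of 10xBulge, and its adjusted p was 0.242 without library 1, 0.108 without library 3, 0.109 without library 4 and 0.139 without library 6. Adam17, the sheddase of tumour necrosis factor, was at 548 and 1278 in WT, 1565 and 1172 in 10xPerf and 1465 and 1806 in 10xBulge and was not called (log2 fold change 0.96, 95% confidence interval -0.12 to 2.04, limma adjusted p = 0.174), but passed without library 2 (0.0584). The other 7 tested other ADAMs (Adam8, Adam12, Adam15, Adam19, Adam22, Adam28 and Adam33) were not called, with log2 fold changes from -0.60 to 0.96. The median of the 12 was 0.69. Summed per kb, the 8 broadly expressed ADAMs stood at 872 and 1216 in WT, 1169 and 1367 in 10xPerf and 2542 and 2146 in 10xBulge. In the same libraries the 10 Sertoli markers summed to between 46441 and 66703 normalized counts in WT and 10xPerf and to 240358 and 106908 in 10xBulge. Clu (196126 and 75652 in 10xBulge) made up most of the Sertoli sum in every library, and the list's median log2 fold change was 1.18. The 6 macrophage markers summed to between 3031 and 6758 in WT and 10xPerf and to 15385 and 10675 in 10xBulge. The part of Sertoli cells and macrophages in the values of the other ADAMs was not tested. With values scaled to library totals the median of all genes moved to 0.35, calls over all genes went from 2712 higher and 5466 lower to 5777 higher and 4792 lower, and 6 other ADAMs were called higher in place of 3.

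Genes that regulate ADAM proteases were mixed. Of 19 listed, 18 were tested, 8 were called higher and 2 lower, with a median of 1.00, where 11.4% of all genes tested were higher and 23.0% lower. Timp1, a metalloprotease inhibitor gene, was at 19.1 and 43.8 normalized counts in WT, 10.3 and 17.9 in 10xPerf and 390 and 350 in 10xBulge (log2 fold change 3.63, limma adjusted p = 0.00125). Timp2 changed by 1.41, Tspan15, a tetraspanin partner of ADAM10, by 1.52, and Rhbdf2, the iRhom partner of ADAM17, by 1.12. Pcsk4, the proprotein convertase of male germ cells, was at 9322 and 7566 in WT, 6602 and 5925 in 10xPerf and 2805 and 1964 in 10xBulge (log2 fold change -1.84, limma adjusted p = 0.00804), and Timp4 changed by -2.52. Of the 4 genes for LGI ligands of the neural ADAMs, Lgi3 was called higher (1.92, limma adjusted p = 0.0453).

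The second question was whether the members differed in 10xPerf. None of the 38 tested members was called against WT by limma, where 0.467% of all genes tested were called higher and 0.492% lower. At an unadjusted limma p under 0.05 there was 1 member, Adam11 (log2 fold change -1.08, limma adjusted p = 0.710). The testis ADAM median was 0.50, with 20 of 21 genes above 0. It was 0.08 without library 1 and 0.76 without library 2, so its size depended on the WT libraries. For Adam3 the log2 fold change was 0.59 (95% confidence interval -0.60 to 1.79) and -0.15 without library 1. For Calr3 it was 0.82 (95% confidence interval -0.18 to 1.82). Of the wider lists above, 0 genes were called in 10xPerf by limma, and 1, among the ADAM regulators, had an unadjusted p under 0.05.

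The last comparison set 10xBulge against 10xPerf and shares the 10xBulge libraries with the first, so it is no independent repeat. Of the 21 testis ADAMs 17 were called lower and 0 higher (limma, 0 also at an unadjusted p under 0.05), where 24.1% of all genes tested were lower and 12.9% higher, with a median of -5.48. Beside the 15 genes that also fell against WT, these were Adam1b and Adam5. Adam5 differed by -1.42 (SE 0.48, limma adjusted p = 0.0567) and lost its call without library 3 (0.312), library 4 (0.178) or library 5 (0.165). Ace, Calr3 and Pdilt were again lower, and Adam9 and Adam23 were higher. Without library 3, 4 or 5, 0 other ADAMs were called higher, and without library 6 there was 1. Without library 3 or 4, 14 testis ADAMs were called lower. Exact permutation of 2 against 2 libraries cannot give a p below 0.33, so no single gene was tested that way.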

How the data were processed

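Ribosome-depleted, stranded total RNA libraries were single-end sequenced at 100 bases. Per the study's methods, the authors assigned reads to GRCm39 transcripts of Ensembl release 104 with salmon and obtained normalized read counts with DESeq2; the versions are not given in the sources used here. The deposited values are that signal per gene and library, not raw counts. The deposited table also holds log2 fold changes and p-values of the authors' own comparisons, which were not used. The libraries of immunoprecipitated piRNAs were not analysed here.

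From the normalized counts, log2(value + 1) was fitted with limma 3.58.1 (R 4.3.3) with genotype as the only term, a mean-variance trend and all 6 libraries, after a filter of at least 10 in at least 2 libraries. P-values were adjusted over all 23782 genes tested. The fit was tested on simulated data. Libraries, each taken as 1 mouse, are the replicates. Per kb values divide by the longest transcript in GENCODE M21 (GRCm38), matched by Ensembl ID; no coordinate was converted. Shared reads are exact 100-base stretches found in transcripts of more than 1 gene. Depth sets precision: a value near 3 reads has a large counting error, and intervals cover the spread between libraries only. Alternatives were pseudocounts of 0.1 and 10, library totals, upper quartile scaling, 2 other filters, 2 genotypes only, no trend, adjusted p under 0.05, a GC trend removed and each library left out. When first run, the GC trend removal also recentred each library; it was changed, after its counts were seen, to keep each library's level.

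The members, classes, marker lists and wider lists were chosen with earlier results of these data known. Every member could be named, and from each wider list up to 4 genes per direction with the smallest p in 10xBulge against WT. Calr, Canx, P4hb and Ythdc2 were named besides. Tex101 was named in addition, after its values were seen, as were marker genes named beside a small count or a sum. Protein sequences were not used here, and 1 planned gene is not reported here.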

Additional observations from a re-analysis of the deposited data

How the results depend on the processing

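No paired analysis was possible because the library numbers differ between genotypes and the labels name no mouse. Each library was taken as a different mouse. Of 480 alternative values for counts and medians, 413 kept within 1.5 times the count or within the spread between replicates. Part of this was fixed in advance. Medians cannot move where only the test changes or where a library of the genotype not compared is left out. Counts of 0 that stayed at 0, as for the members in 10xPerf, also count as kept. The 413 is therefore no measure of how firm the results are. In 10xBulge against WT the testis ADAM median was -4.89 with a pseudocount of 10 and -4.86 with library totals. The other ADAM median was 1.07 with library totals, with 6 called higher, and with 2 genotypes only 0 were called lower. Genes called higher over the whole table numbered 5777 with library totals, 1512 with 2 genotypes only and 1370 at an adjusted p under 0.05, and 2926 were called lower where every library had to reach 10. Clgn (0.11) and Adam30 (0.15) changed sign with library totals, neither of them passing the test.

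In 10xPerf against WT, genes higher and lower numbered 40 and 65 with a pseudocount of 0.1, 73 and 77 under library totals, 44 and 53 where every library had to reach 10, 214 and 190 with 2 genotypes only, and 63 and 72 at an adjusted p under 0.05, against 111 and 117 as reported. In 10xBulge against 10xPerf the testis ADAM median was -5.12 with a pseudocount of 10 and -5.21 with the GC trend removed. Other ADAMs called higher were 4 with library totals, 1 without the mean-variance trend and 1 at an adjusted p under 0.05. With library totals their median was 0.65, 1 chaperone or maturation gene was called higher, and 5108 genes were called higher and 5206 lower, against 3077 and 5729 as reported. At an adjusted p under 0.05, 1725 genes were called higher, and 3064 were called lower where every library had to reach 10. The cause of these shifts was not tested.

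Leaving out each library in turn leaves 1 library in a genotype, which is assumed to vary like the others. In 10xBulge against WT this gave 636 to 2858 genes higher, a testis ADAM median of -5.66 to -4.80, 14 to 15 testis ADAMs lower, 1 to 4 other ADAMs higher, 0 to 1 lower and their median at 0.39 to 0.84. In 10xPerf against WT it gave 11 to 204 genes higher, 10 to 186 lower and a testis ADAM median of 0.084 to 0.76. In 10xBulge against 10xPerf it gave 418 to 3286 genes higher, 3730 to 5812 lower, a testis ADAM median of -5.64 to -5.04, 0 to 3 other ADAMs higher and their median at 0.40 to 0.68. The sign depended on the library left out for Adam33 (-1.01 to 0.23), Clgn (-0.77 to 0.23), Adam28 (-0.071 to 0.67), Adam18 (-0.18 to 0.46) and Adam2 (-0.36 to 0.66) in 10xBulge and for Adam3 in 10xPerf (-0.15 to 1.33), none of which passed the test in any of these. The testis ADAMs with 1 coding exon that fell and Pdilt, Calr3 and Ace passed in every one of the 16 alternatives that kept them in the test; Adam6b, Adam21, Adam34 and Adam34l were filtered out where every library had to reach 10. With 2 libraries per genotype, the called member nearest 0 in 10xBulge against WT was Adam11 at -1.31.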
